A study of Mus musculus with 10 samples.

Results

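Granule cells are the principal neurons of the dentate gyrus, the entry station of the hippocampus, and the genes described here are 10 markers of these cells: Prox1, Plk5, Lct, Glis3, Dsp, C1ql2, Tdo2, Calb1, Stxbp6 and Npnt. They were taken as a fixed list of symbols, and every probe set annotated to exactly 1 of these symbols was used. Each of the 10 genes had 1 such probe set, so 10 of 19938 measured genes are described. The arrays came from whole hippocampi, left and right together, of 16-week-old male mice. The groups were 5 Dp1Yey mice, which carry a segmental duplication of mouse chromosome 16 from Lipi to Zbtb21 and therefore 3 copies of the genes within it, and 5 control littermates without it, with 1 Affymetrix Mouse Gene 1.0 ST array per mouse. The background strain was C57BL/6N in the sample labels and C57BL/6J in the study's methods. All 10 markers lie on other chromosomes and are present in 2 copies in both groups.

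Granule cells receive input from the entorhinal cortex and send their axons, the mossy fibres, to the pyramidal cells of CA3. They are among the few neurons that are still born in the adult rodent brain, and a newborn cell passes from a stage marked by Dcx and Calb2 to a mature stage marked by Calb1. Prox1 is a homeobox transcription factor that is required for granule cell identity. None of the 10 genes is made only by granule cells in the body, and Calb1 is also made by CA1 pyramidal cells and interneurons, Prox1 also by some interneurons.

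The markers did not all lie on the same side of control in Dp1Yey mice, and no difference passed the threshold over all genes in limma. Plk5 and Lct stood at 0.784-fold and 0.792-fold of control in Dp1Yey hippocampi, Glis3 and Npnt lay lower by a smaller amount, Dsp, C1ql2, Prox1 and Stxbp6 had lower means with intervals that included no difference, Calb1 had a higher mean with an interval that also included no difference, and Tdo2 lay higher. Over all genes, limma (Benjamini-Hochberg adjusted p under 0.05) called 0 of the 10, while 0.797% of the 19938 genes were called in either direction and 0.11% were called lower. At an unadjusted p under 0.05, 4 of the 10 were lower (10.8% of all genes were) and 1 was higher (8.75% of all genes were). A fold-change rank statistic of the kind that the study used called 2 of the 10 lower, Plk5 and Lct, against 0.993% of all genes, and 0 higher. On simulated data with 200 changed genes this statistic made 1071 calls, so most of those calls fell on unchanged genes. In whole tissue, fewer granule cells and less RNA per granule cell cannot be told apart.

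Every marker was above background. The floor was set at 5.45 on the log2 scale, a level that 90% of 1015 olfactory receptor genes, silent in most brain cells, did not exceed in their mean, and all 10 markers were above it. The arrays differed by small amounts that leaned with group, with medians tending lower and interquartile ranges wider in Dp1Yey. Their medians ran from 6.31 to 6.37 in Dp1Yey and from 6.35 to 6.44 in control mice, and their interquartile ranges from 3.47 to 3.53 and from 3.40 to 3.51. Over all genes the median log2 difference (Dp1Yey minus control) was -0.015, and 57.9% of genes had a lower mean in Dp1Yey (33.6% with each array centred on its median, where 7 of the 10 markers had). Of the 10 markers 8 had a lower mean (53.7% of the genes above the floor had), and the median log2 difference of the 10 was -0.12, or -0.07 with median centring. Control replicate 4 lay low among the control mice in most of the markers.

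Prox1 and Glis3 are transcription factors. Prox1 (Entrez 19130, chromosome 1, 190118035 to 190170827, build GRCm38.p6) read 9.62, 9.70, 9.65, 9.70 and 9.64 on the log2 scale in Dp1Yey replicates 1 to 5 and 9.81, 9.73, 9.84, 9.56 and 9.72 in control replicates 1 to 5. The Dp1Yey values were tightly packed and lay inside the wider control range, in which control replicate 4 was the lowest of all 10 mice. The log2 difference was -0.07 (95% CI -0.18 to 0.04, adjusted p = 0.433, limma). It moved with single arrays, to -0.11 without control replicate 4 and -0.04 without control replicate 3, and was -0.02 with median centring. Glis3, a zinc finger transcription factor known from pancreatic and thyroid development (Entrez 226075, chromosome 19, 28258851 to 28680265), read 8.19, 8.26, 8.05, 8.23 and 8.18 in Dp1Yey and 8.38, 8.46, 8.27, 8.24 and 8.41 in control mice. All 5 Dp1Yey values lay under the control mean, and the groups touched only through Dp1Yey replicate 2 and control replicate 4. The difference was -0.17 (-0.29 to -0.06, adjusted p = 0.126, limma), or 0.888-fold.

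Plk5 and Lct had the lowest values relative to control. Plk5, a member of the polo-like kinase family that is expressed in brain (Entrez 216166, chromosome 10, 80356459 to 80365489), read 7.94, 8.08, 8.05, 8.12 and 7.72 in Dp1Yey and 8.63, 8.32, 8.23, 8.16 and 8.34 in control mice. It was the 1 marker of the 10 whose groups did not overlap, against 2.46% of all genes and 2.44% of genes above the floor that were lower without overlap. No marker was higher without overlap, against 2.4% of all genes. The gap between the highest Dp1Yey and the lowest control mouse was 0.041, and with median centring the Plk5 groups overlapped (0 of the 10 markers then lower without overlap, and 0.782% of all genes). The Dp1Yey mean was 7.98 ± 0.16 and the control mean 8.33 ± 0.18 (SD over 5 mice), and the log2 difference was -0.35 (-0.55 to -0.15, adjusted p = 0.0939, limma). Dp1Yey replicate 5 stood apart at the low end and control replicate 1 at the high end, and the difference was -0.29 without the former and -0.28 without the latter.

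Lct encodes lactase, the intestinal enzyme that splits milk sugar, and is transcribed in granule cells (Entrez 226413, chromosome 1, 128284756 to 128328318). It read 9.22, 9.45, 9.36, 9.53 and 9.10 in Dp1Yey and 9.67, 9.68, 9.64, 9.44 and 9.92 in control mice. The overlap came from control replicate 4, which lay under Dp1Yey replicates 2 and 4. The difference was -0.34 (-0.54 to -0.14, adjusted p = 0.103, limma). The Dp1Yey mean was 9.33 ± 0.18 and the control mean 9.67 ± 0.17 (SD over 5 mice). In both Plk5 and Lct, Dp1Yey replicates 5 and 1 were the lowest mice, in that order, and Dp1Yey replicate 4 was the highest of its group. Without control replicate 4, the lowest control mouse in most markers, 4 of the 10 were lower without overlap (Plk5, Lct, Glis3 and Prox1), against 4.01% of all genes in that setting. Without Dp1Yey replicate 2 these were Plk5 and Glis3, against 3.11%. Separation in the other direction also appeared when an array was left out: Calb1 was higher without overlap without Dp1Yey replicate 3 (2.64% of all genes were) and Tdo2 without control replicate 3 (4.25% were).

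**Figure D1:**
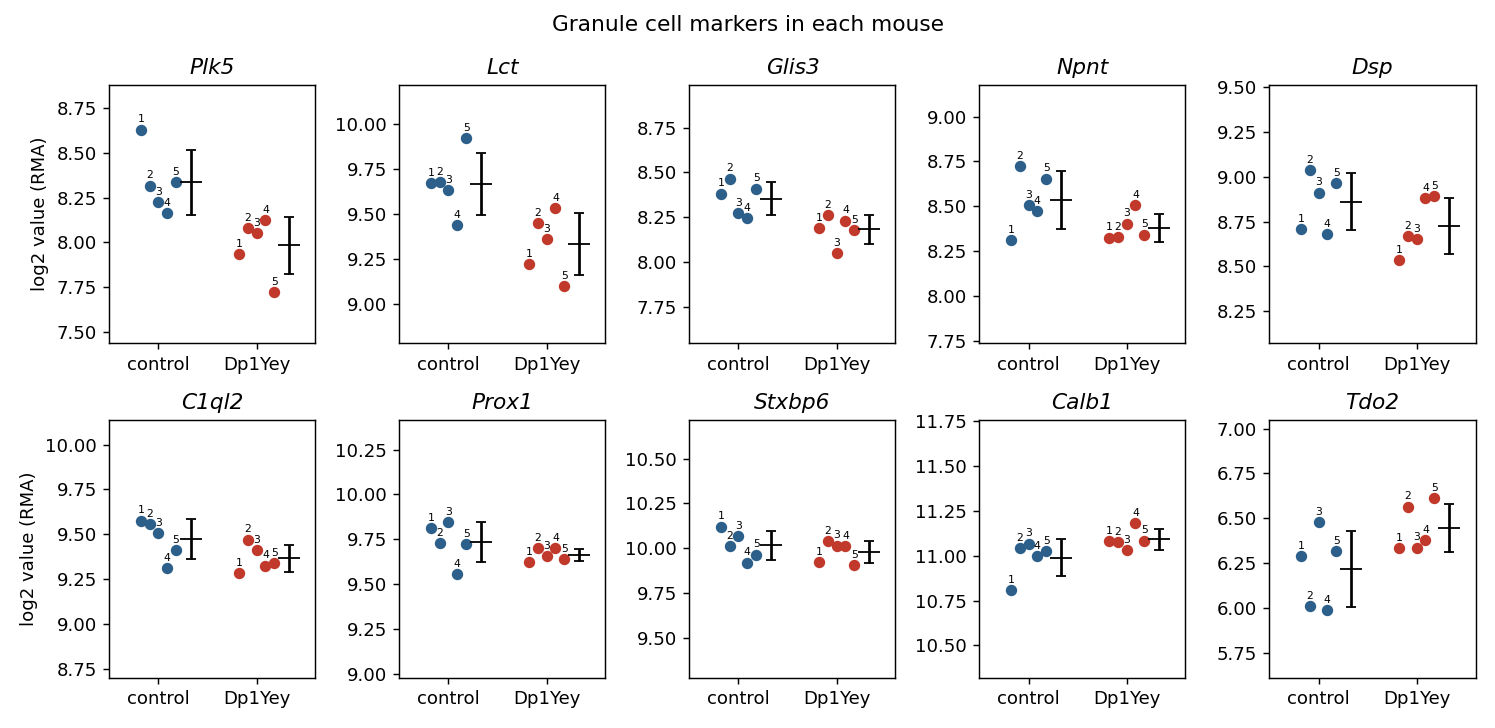
Log2 values (RMA) of the 10 granule cell markers in 5 control (blue) and 5 Dp1Yey (red) mice, ordered by their difference, with replicate numbers beside the points and the group mean ± SD in black; every panel spans the same log2 range. The groups separate in Plk5, with Dp1Yey mice between 7.72 and 8.12 and control mice between 8.16 and 8.63, and they overlap in the other 9 genes.

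The promoters of Plk5 and Lct, the genes lowest relative to control, and of Tdo2, the gene highest relative to control, are shown because these genes mark the ends of the range. RefSeq promoter sequences were found for 9 of the 10 genes (11 promoters), and Calb1 had none. Each line gives the 250 bases before the annotated start, in the direction of transcription, from build GRCm38.p6, with a match to the TATA box in capitals.
Plk5 (chr10:80356209-80356458, plus strand): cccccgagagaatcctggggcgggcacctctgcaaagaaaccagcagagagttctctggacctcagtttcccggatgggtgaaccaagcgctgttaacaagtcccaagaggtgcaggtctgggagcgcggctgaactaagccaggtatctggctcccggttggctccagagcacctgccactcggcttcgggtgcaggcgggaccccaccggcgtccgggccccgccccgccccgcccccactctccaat
Lct (chr1:128328319-128328568, minus strand): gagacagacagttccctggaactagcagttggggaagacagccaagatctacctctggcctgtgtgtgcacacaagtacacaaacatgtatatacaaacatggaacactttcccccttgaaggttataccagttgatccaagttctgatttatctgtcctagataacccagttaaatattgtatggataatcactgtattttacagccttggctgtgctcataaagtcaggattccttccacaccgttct
Tdo2 (chr3:81975729-81975978, minus strand): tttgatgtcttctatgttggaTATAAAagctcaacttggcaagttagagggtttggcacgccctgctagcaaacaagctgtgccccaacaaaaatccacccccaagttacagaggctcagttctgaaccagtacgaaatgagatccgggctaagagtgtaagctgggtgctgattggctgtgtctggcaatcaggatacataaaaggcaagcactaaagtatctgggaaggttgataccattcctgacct
The motifs searched on both strands were the E-boxes CAGATG (reverse CATCTG) and CAGCTG, which bHLH factors bind, the cAMP response element TGACGTCA and the TATA box TATAAA (reverse TTTATA). Plk5 and Lct held none of these letters in this window, and their base composition differed, with 65.6% G and C in Plk5 and 42.8% in Lct. Tdo2 held TATAAA 229 bases before the start. Among the other markers, 1 of the 2 Prox1 promoters held CAGATG 179 bases and TTTATA 34 bases before the start, and Glis3 held CAGCTG 173 bases before it. CAGATG was found in 1 of the 11 promoters of the markers and in 14.4% of the 32851 promoters of the table, CAGCTG in 1 (13% of all), TATAAA in 2 (12.4%) and TGACGTCA in 0 (1.55%). No motif was shared by Plk5 and Lct, and a match describes letters, not a bound site.

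Genes of adhesion and the extracellular matrix followed. Npnt encodes nephronectin, a matrix protein that binds an integrin (Entrez 114249, chromosome 3, 132881745 to 132950291). It read 8.33, 8.33, 8.40, 8.51 and 8.34 in Dp1Yey and 8.31, 8.73, 8.51, 8.47 and 8.65 in control mice, with control replicate 1 as the lowest of the 10 mice. The difference was -0.15 (-0.31 to -0.00099, adjusted p = 0.254, limma). Dsp encodes desmoplakin, which anchors desmosomes to intermediate filaments and is a marker of mature granule cells (Entrez 109620, chromosome 13, 38151294 to 38198577). It read 8.54, 8.67, 8.65, 8.88 and 8.89 in Dp1Yey and 8.71, 9.04, 8.91, 8.68 and 8.97 in control mice. In Dp1Yey 3 mice lay low and the other two at control level, and the difference was -0.13 (-0.32 to 0.05, adjusted p = 0.384, limma), or -0.09 without Dp1Yey replicate 1.

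C1ql2 and Stxbp6 act at synapses. C1ql2 encodes a secreted C1q-like protein that organises mossy fibre synapses (Entrez 226359, chromosome 1, 120340582 to 120343174). It read 9.28, 9.47, 9.41, 9.32 and 9.34 in Dp1Yey and 9.58, 9.56, 9.51, 9.31 and 9.41 in control mice. All 5 Dp1Yey values lay under the control mean, but control replicates 4 and 5 overlapped with them, and the difference was -0.11 (-0.23 to 0.01, adjusted p = 0.296, limma), or -0.06 with median centring. Stxbp6 encodes amisyn, which binds syntaxin and holds back SNARE assembly (Entrez 217517, chromosome 12, 44852484 to 45075118). It read 9.92, 10.04, 10.01, 10.01 and 9.90 in Dp1Yey and 10.12, 10.01, 10.07, 9.92 and 9.96 in control mice. The groups covered much the same range, and the interval of the difference ran from -0.13 to 0.06 around -0.04 (adjusted p = 0.645, limma). The difference lay between -0.06 and -0.01 when single control mice were left out, and at 0.0088 with median centring.

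Calb1 and Tdo2 lay higher in Dp1Yey. Calb1 encodes calbindin, a calcium buffer whose loss from granule cells is known from mouse models of epilepsy and Alzheimer's disease (Entrez 12307, chromosome 4, 15881264 to 15906709). It read 11.08, 11.08, 11.03, 11.18 and 11.08 in Dp1Yey and 10.81, 11.04, 11.07, 11.00 and 11.03 in control mice. All 5 Dp1Yey values lay above the control mean, and control replicate 1 stood apart at the low end. The difference was 0.10 (-0.0064 to 0.21, adjusted p = 0.28, limma), and 0.06 without control replicate 1. Tdo2 encodes tryptophan dioxygenase, which opens the tryptophan ring at the head of the kynurenine pathway and also marks mature granule cells (Entrez 56720, chromosome 3, 81958412 to 81975728). It read 6.33, 6.56, 6.34, 6.38 and 6.61 in Dp1Yey and 6.29, 6.01, 6.48, 5.99 and 6.32 in control mice. Its control values were the more scattered, with replicates 2 and 4 low, and the difference was 0.23 (0.02 to 0.43, adjusted p = 0.217, limma).

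Whether the markers differed from each other in their response was tested pair by pair. For each of the 45 pairs, the difference between the log2 values of the pair within a mouse was compared between the groups by a two-sided exact permutation test (n = 5 each), whose smallest p is 0.00794. Of the 45 pairs, 19 had an unadjusted p under 0.05 and 7 reached the smallest p, and 0 passed after adjustment over the 45 pairs (smallest adjusted p = 0.051). All 7 had this adjusted p. With 5 mice a group no pair could pass by itself, because passing needs many pairs at or near the smallest p. The 0 therefore does not show that the markers responded alike. Of the 7 pairs, 6 held Calb1 or Tdo2. The intervals given for pairs are ordinary t intervals with a pooled variance, not adjusted over the 45 pairs. The difference of Plk5 minus that of Tdo2 was -0.58 (95% CI -0.94 to -0.22). For Plk5 minus Calb1 it was -0.45 (-0.78 to -0.13), and for Lct minus Calb1 -0.44 (-0.70 to -0.18). For Plk5 minus Stxbp6 it was -0.31 (-0.49 to -0.14), with Stxbp6 a marker of the same cells with little difference between the groups. Between Plk5 and Lct the difference was -0.01 (-0.23 to 0.20). The adjusted result moved with single arrays: without control replicate 3, 11 pairs passed, and without control replicate 4, 8 passed. These counts too turn on how many pairs reach the smallest p.

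**Figure D2:**
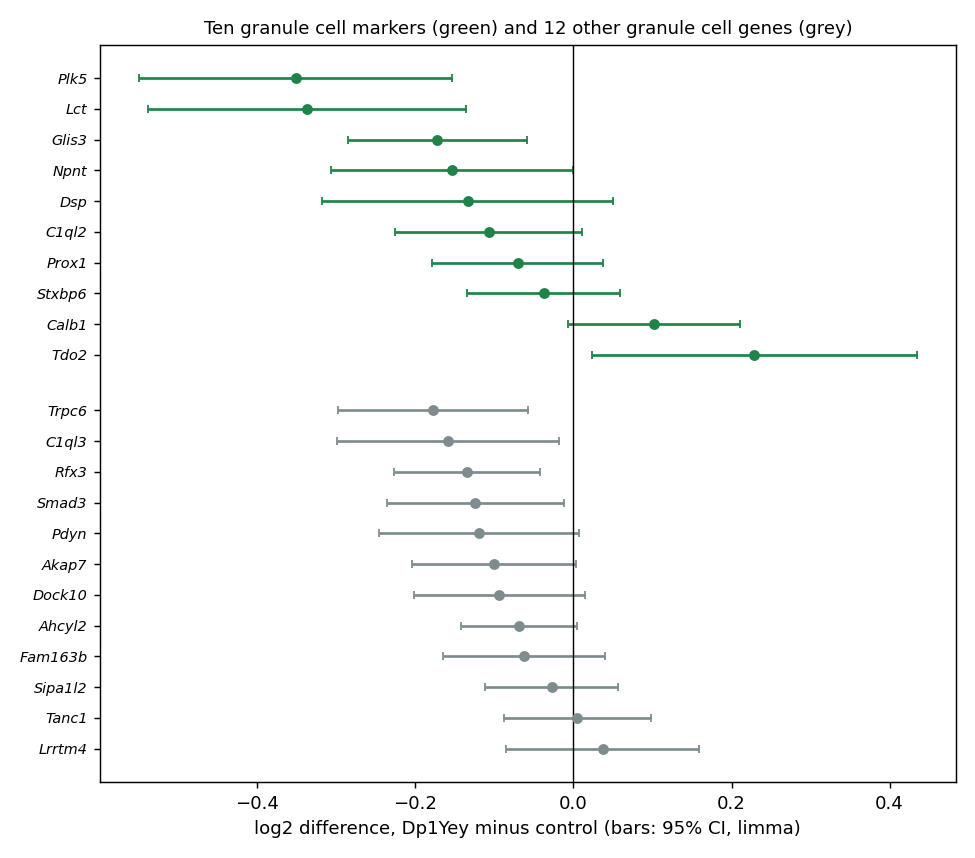
Log2 difference (Dp1Yey minus control, 5 mice each) with its 95% CI from limma, for the 10 granule cell markers (green) and 12 other granule cell genes (grey). Plk5 lies lowest at -0.35 and Tdo2 highest at 0.23, and 10 of the 12 other genes lie left of the zero line.

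The mice were not alike within a group. Each marker was set against its own control mean, and the mean over the 10 markers was -0.17, -0.05, -0.12, -0.03 and -0.14 in Dp1Yey replicates 1 to 5 and 0.01, 0.04, 0.03, -0.14 and 0.06 in control replicates 1 to 5. Dp1Yey replicates 2 and 4 thus lay nearest to the control mice, and control replicate 4 lay among the Dp1Yey mice, with 9 of its 10 markers under the control mean. In Dp1Yey mice 7 or 8 of the 10 markers lay under it, Calb1 and Tdo2 above it in all 5. The lowest single deviations were those of Plk5 (-0.61) and Lct (-0.57), both in Dp1Yey replicate 5. Without control replicates 1 and 2 together the median difference of the markers was -0.09 and that of Plk5 -0.26 (adjusted p = 0.219, limma), and 4 markers were lower at an unadjusted p under 0.05, against 5.66% of all genes.

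**Figure D3:**
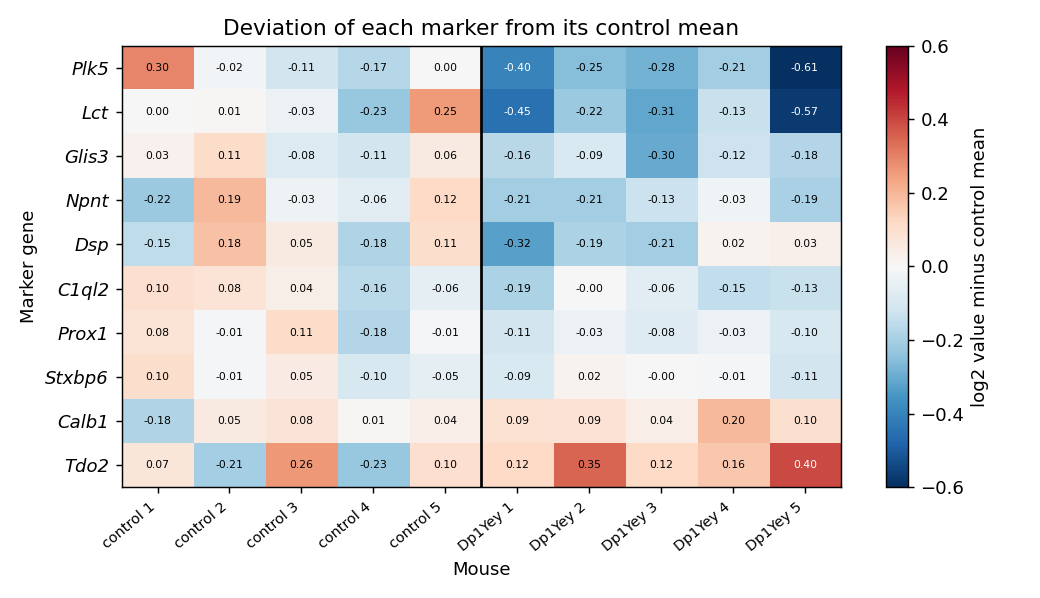
Log2 value of each of the 10 markers in each mouse minus the mean of the 5 control mice, blue below and red above it, with control mice left and Dp1Yey mice right of the line. Plk5, Lct, Glis3, Prox1, C1ql2 and Npnt are below the control mean in all 5 Dp1Yey mice, Calb1 and Tdo2 are above it in all 5, and control replicate 4 is below it in 9 of 10 markers.

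A second list held 12 other genes that are enriched in granule cells: Rfx3, Dock10, Trpc6, C1ql3, Fam163b, Lrrtm4, Pdyn, Akap7, Sipa1l2, Ahcyl2, Smad3 and Tanc1. All 12 were measured and above the floor, and 10 had a lower mean in Dp1Yey (53.7% of the genes above the floor had). Neither limma nor the rank statistic called any of them (0 of 12). At an unadjusted p under 0.05 there were 4 lower (10.8% of all genes were) and 0 higher (8.75% were). The median log2 difference was -0.10. Trpc6, a calcium-permeable channel, read 8.46, 8.31, 8.33, 8.43 and 8.45 in Dp1Yey and 8.74, 8.47, 8.61, 8.47 and 8.57 in control mice. Trpc6 was the 1 gene of the 12 without overlap, against 2.46% of all genes that were lower without overlap. Its difference was -0.18 (95% CI -0.30 to -0.06, adjusted p = 0.134, limma). The transcription factor Rfx3 was at -0.13 (-0.23 to -0.04, adjusted p = 0.137), C1ql3, a relative of C1ql2, at -0.16 (-0.30 to -0.02, adjusted p = 0.213) and the TGF-beta signal transducer Smad3 at -0.12 (-0.24 to -0.01, adjusted p = 0.218). Without Dp1Yey replicate 1 or control replicate 5 the 4 lower genes became 2 (8.28% and 12.1% of all genes in these settings). Over both lists, 18 of 22 genes had a lower mean, against 53.7% of the genes above the floor, and the median was -0.10.

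Genes of earlier stages also had lower means. Of 7 genes of immature granule cells all 7 had a lower mean (53.7% of the genes above the floor had). Their median was -0.09, and 0 were called. At an unadjusted p under 0.05, 1 was lower (10.8% of all genes were): Igfbpl1, at -0.28 (-0.55 to -0.0015, adjusted p = 0.254, limma). Igfbpl1 had a mean level of 5.83, near the floor, and an SD of 0.33 in control and 0.08 in Dp1Yey mice. The mean deviation of the 7 genes was 0.14 in control replicate 1 and -0.10 to 0.01 in the other control mice. In Dp1Yey mice it ran from -0.20 to -0.06. Draxin, a secreted axon guidance protein, was at -0.13 (-0.28 to 0.02), and Sox4, a transcription factor of young neurons, at -0.09 (-0.19 to 0.02). Of the 4 cycling cell genes measured, 4 had a lower mean (57.9% of all genes had) and 1 was above the floor. Most of these values therefore lie at background. Mki67 read lower without overlap (-0.08, -0.15 to -0.0023, adjusted p = 0.244, limma) at a mean level of 5.44, under the floor. Of all genes, 2.46% were lower without overlap.

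Neighbouring cells were read from lists of the same kind, and each gene was set against its own control mean. For the CA1 list, 4 of 6 measured genes had a lower mean and the median was -0.05. Wfs1, an endoplasmic reticulum protein that marks CA1, was 0.42 higher without overlap (0.23 to 0.61, adjusted p = 0.0533, limma). Of all genes, 2.4% were higher without overlap. CA1 pyramidal cells also make Calb1, and the values of the 2 genes stand side by side with no test between them. For the CA2 list 2 of 4 genes were lower (median -0.0061), for the CA3 list 3 of 6 (median 0.02), and for mossy cells 3 of 5 (median -0.02). In the CA2 list Rgs14 was 0.17 higher without overlap (0.05 to 0.28, adjusted p = 0.138, limma). In the CA3 list Coch was at -0.34 (-0.60 to -0.08, adjusted p = 0.166) and Prss35 at 0.22 (0.08 to 0.37, adjusted p = 0.124). Among the genes of the mossy cell list Calcrl, which endothelium also makes, rose by 0.28 on the log2 scale (0.16 to 0.41, adjusted p = 0.0459, and 0.0735 when adjusted over genes outside the duplicated interval). Calb2 stood out in control replicate 1 at 10.43 against 8.58 to 9.04 in the other control mice. In Dp1Yey replicate 1 it was also high, at 9.70 against 8.51 to 8.86 in the other Dp1Yey mice. General neuronal genes had a median of -0.00052 and 3 of 6 lower means, with Snap25 0.05 higher without overlap (-0.0092 to 0.11, adjusted p = 0.321, limma). Interneuron genes had 0 of 7 lower means and a median of 0.05, and 0 passed at an unadjusted p under 0.05. Calcrl was the 1 gene that limma called over all the lists examined, against 0.797% of all genes called in either direction.

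Of the other cell types, astrocyte genes had 2 of 5 lower means (median 0.03), oligodendrocyte genes 1 of 4 (median 0.09), microglial genes 1 of 6 (median 0.07), thalamus and habenula genes 2 of 5 (median 0.03), cortex genes 3 of 5 (median -0.02) and meningeal and fibroblast genes 3 of 5 (median -0.0041). The astrocyte gene Gfap was 0.10 higher without overlap (0.02 to 0.18, adjusted p = 0.179, limma), against 2.4% of all genes. Choroid plexus genes mark tissue that can adhere to a dissected hippocampus. Of these, 5 of 5 were lower at an unadjusted p under 0.05 (10.8% of all genes were), with a median of -0.58. Limma called 0 of them, and the rank statistic called 4 lower (0.993% of all genes were). Aqp1 was at -0.39 without overlap (-0.59 to -0.18, adjusted p = 0.0759, limma), against 2.46% of all genes lower without overlap. The mean deviation of the choroid plexus list ran from -1.08 to -0.36 in Dp1Yey and from -0.80 to 0.70 in control mice. It was high in control replicates 1, 4 and 5 (0.70, 0.36 and 0.36) and low in control replicates 2 and 3 (-0.62 and -0.80). In the same control mice, replicates 1 to 5, the mean deviation of the 10 granule cell markers was 0.01, 0.04, 0.03, -0.14 and 0.06. The part of adhering tissue in the marker values was not tested. Control replicate 1 also stood apart in other lists, at 0.26 for thalamus and habenula genes (-0.15 to -0.0040 in the other control mice), -0.28 for cortex genes (0.02 to 0.10) and 0.36 for mossy cell genes (-0.13 to -0.03). It was the control mouse highest in Plk5 and lowest in Calb1, and the part of these tissues in its values was not tested.

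**Figure D4:**
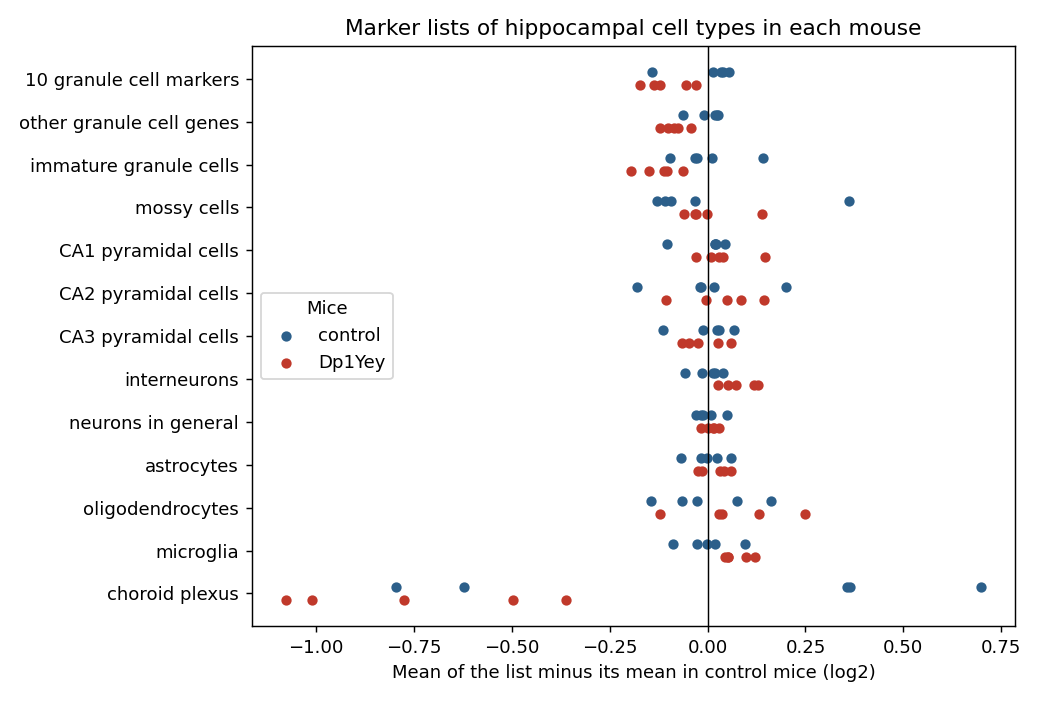
Mean over the genes of each marker list minus the mean of that list in control mice (log2), 1 point per mouse, control blue and Dp1Yey red, with 10 granule cell markers in the top row. The granule lists lie to the left, with Dp1Yey mice from -0.17 to -0.03 for the 10 markers and 1 control mouse at -0.14, the general neuronal list stays near zero, and the choroid plexus list spreads from -1.08 to 0.70.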

How the data were processed

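The deposited values are on a log2 scale and came from the authors' robust multi-array average (RMA), which corrects background, quantile normalises the probes across arrays and summarises each probe set. RMA, limma and mm10 stand in the submitters' processing notes. The sources used here do not say which arrays shared a normalisation, and scanner files were not used here. Quantile normalisation makes array distributions alike, so a shift shared by most genes would not show. Of 35556 probe sets, 21789 had 1 gene symbol, 1621 several (not used) and 12146 none listed. The brightest probe set represented each of 19938 genes, and positions came from RefSeq GRCm38.p6 through Entrez identifiers.

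Dp1Yey minus control was fitted, with group as the sole term, by lmFit and eBayes (limma 3.58.1, R 4.3.3), two-sided, with Benjamini-Hochberg adjustment over 19938 genes and 95% confidence intervals from the moderated errors. The study used a fold-change rank statistic, which was rewritten here (ranks over 25 pairs of arrays, a trim of 0.25, tails at 0.025 and 0.975) and run as an alternative. Pairs of markers were compared over all 252 assignments of mice, and their 95% confidence intervals came from an unmoderated t interval with a pooled variance. The number of arrays limits the precision. The members and lists were chosen with earlier results of these data known, so no p-value is given over the list. The genes named are the 10 markers and, from each other list, up to 4 of smallest p. Counts over a cell type list are over its measured genes, and a few listed genes are not reported here.

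On simulated data for this comparison over 19938 genes, with 200 changed, limma found 97% of genes given a 1.5-fold change and 63% of genes given a 1.2-fold change. False calls made up 6.43% of all limma calls. The rank statistic made 1071 calls on the same data, so most of its calls were false. The alternatives were a new quantile normalisation, median centring, a filter on dim genes, the mean of probe sets, an intensity trend with robust prior, weighting of arrays, the replicate number as a block, adjustment over genes outside the duplicated interval, a covariate for the spread (interquartile range) of an array, leaving out control replicates 1 and 2, and leaving out each array.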

Additional observations from a re-analysis of the deposited data

Results flagged for a closer look

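Calb1 in control replicate 1 was flagged as far from the other control mice, at 10.81 against 11.00 for the next lowest mouse. It was 1 of 20 groups of 5 values examined (10 genes in each group of mice), and chance flags about 1 in 20 groups.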

How the results depend on the processing

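Limma called 0 of the 10 markers under each alternative run, and the rank statistic called 2. The adjusted p ranged from 0.0695 to 0.443 for Plk5 and from 0.0776 to 0.244 for Lct. Of the 10 markers 7 or 8 had a lower mean under every alternative, and the median difference lay between -0.16 and -0.07. The sign turned for Stxbp6 alone, to 0.0088 with median centring. With a new quantile normalisation 2 markers (Plk5 and Glis3) were lower without overlap (2.4% of all genes), and with median centring 0 were (0.782%). At an unadjusted p under 0.05, the new normalisation gave 6 lower markers and 7 of the 12 other granule cell genes (9.42% of all). With median centring 3 markers and 1 of the 12 were lower at that p (3.74% of all genes). With a covariate for the spread of each array 2 markers were lower at that p (3.45% of all genes). When each array was left out in turn, 3 to 6 markers and 2 to 6 of the other granule cell genes were lower at that p (7.37% to 12.8% of all genes). In the same settings 1 to 4 markers were lower without overlap (2.68% to 4.69% of all genes) and 0 or 1 higher without overlap (2.64% to 4.25%), and 0 to 11 pairs passed, with 11 without control replicate 3 and 8 without control replicate 4. The causes were not tested.

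The replicate numbers gave no clear sign of pairing: deviations of same-numbered mice correlated from -0.33 to 0.22, with 1 of 5 pairs (replicate 4) over 0.1. Whether mice were paired by litter or batch was not tested, and these correlations cannot show that they were not. With the replicate number as a block limma called 0 markers and 3 were lower at an unadjusted p under 0.05 (8.78% of all genes). With 5 arrays a group, a change near 1.2-fold is often not called.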
